A study of Homo sapiens with 6 samples.

Results

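The 10 genes described here encode the subunits of AMP-activated protein kinase (AMPK) and 4 regulators of mitochondrial biogenesis. They were taken by symbol from the 17177 genes of an RNA-seq table, with no threshold on their values though with earlier results of these data known, and all 10 were found in it. The AMPK genes were *PRKAA1*, *PRKAA2*, *PRKAB1*, *PRKAB2*, *PRKAG1* and *PRKAG2*, and the regulators were *PPARGC1A*, *PPARGC1B*, *NRF1* and *ESRRA*. The cells were NCI-H660, an established human cell line from neuroendocrine prostate cancer (NEPC) that the labels give as wild type. One group was treated with pyrvinium pamoate (PP), an anthelmintic drug, and the control group with phosphate-buffered saline (PBS). Each group had 3 libraries from day 3, and the PP concentration was not given in the sources used here. A single line was studied. The study calls its samples independent, the labels do not say whether the libraries came from separate cultures, and the p-values measure the spread between these libraries.

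AMPK is a kinase of a catalytic alpha, a scaffold beta and a regulatory gamma subunit. It senses low cellular energy through AMP and ADP bound to gamma, is switched on by phosphorylation of alpha, and shifts cells from biosynthesis to fuel oxidation. *PPARGC1A* and *PPARGC1B* encode the coactivators PGC-1alpha and PGC-1beta, which bind transcription factors such as the estrogen-related receptor ERRalpha, the product of *ESRRA*, and nuclear respiratory factor 1, the product of *NRF1*, to drive genes of the respiratory chain and of mitochondrial DNA upkeep. Only RNA was measured in these libraries, and neither protein, phosphorylation nor mitochondrial mass was. The comparison of PP with PBS asks how the RNA of this energy-sensing system stood after treatment.

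Levels are in FPKM, which counts fragments relative to gene length and to the total of the library. The steps between the FPKM values gave back whole counts, which came to 29064253 to 32481171 per library. Log2 fold changes are mean log2(FPKM + 1) with PP less that with PBS, fitted with limma over the 11726 genes that averaged 1 FPKM or more, and a gene was called at a Benjamini-Hochberg adjusted p under 0.05. The response to PP was broad, with 38.1% of all tested genes called higher and 34.4% called lower, 72.5% in all. Libraries differed more between treatments (chi-square per degree of freedom 127.7 to 146.2) than within them (3.16 to 6.32). The neuroendocrine label was checked on 7 markers, of which 6 had a mean FPKM of at least 1, and the other, *ELAVL3*, lay at 0.870 ± 0.0625 (SD, n = 3) with PBS. The summed FPKM of these markers was 205 to 217 with PBS and 167 to 183 with PP. The markers went different ways, as *SYP*, *CHGA*, *CHGB* and *ENO2* fell, *INSM1* rose and *NCAM1* did not pass the test. *CHGA*, a granule protein gene, fell from 43.3 ± 0.870 to 24.8 ± 1.09 FPKM (limma adjusted p = 8.92e-08), and *INSM1*, a neuroendocrine transcription factor gene, rose from 16.5 ± 0.978 to 19.3 ± 1.17 FPKM (limma adjusted p = 0.00679). These changes moved together with every difference below, and its part in them was not tested. Of markers of other cells, 3 of 5 chosen androgen receptor axis genes were measured. Over the 6 libraries, 0 of these 3 reached a mean FPKM of 1. Their summed FPKM was 0.821 to 1.37 with PBS and 0.392 to 0.788 with PP. The highest of them, *TMPRSS2*, averaged 1.02 FPKM with PBS and 0.459 FPKM with PP. The 4 stromal genes summed to 4.0003 to 4.40 and 4.42 to 4.79 FPKM, mostly *COL1A1*, and the 3 leukocyte genes to 1.30 to 1.58 and 0.851 to 1.25 FPKM, nearly all *CD68*, while *PTPRC* and *CD3E*, which define leukocytes and T cells, had at most 4 counts in a library. In bulk RNA, fewer cells of a type and less RNA per cell cannot be told apart.

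The 10 genes moved in both directions. Of the 10, 7 rose, 1 fell and 2 did not pass the test, where 38.1% of all tested genes rose and 34.4% fell. In 8 of them the PP libraries lay all above or all below the PBS libraries, which 75.0% of all tested genes also did. Counted in either direction, the called members were near the 72.5% of all tested genes that were called. By direction, more of them rose and fewer fell than among genes in general, and this difference was not tested. The median log2 fold change was 0.25 over the 10 genes and 0.02 over all tested genes. No member passed the stricter cutoff in the study's methods (P under 0.001 and a log2 fold change beyond 1 either way), which 2.24% of tested genes passed upward and 2.93% downward. *NRF1* had the highest log2 fold change of the 10 and *PPARGC1B* the lowest.

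**Figure D1:**
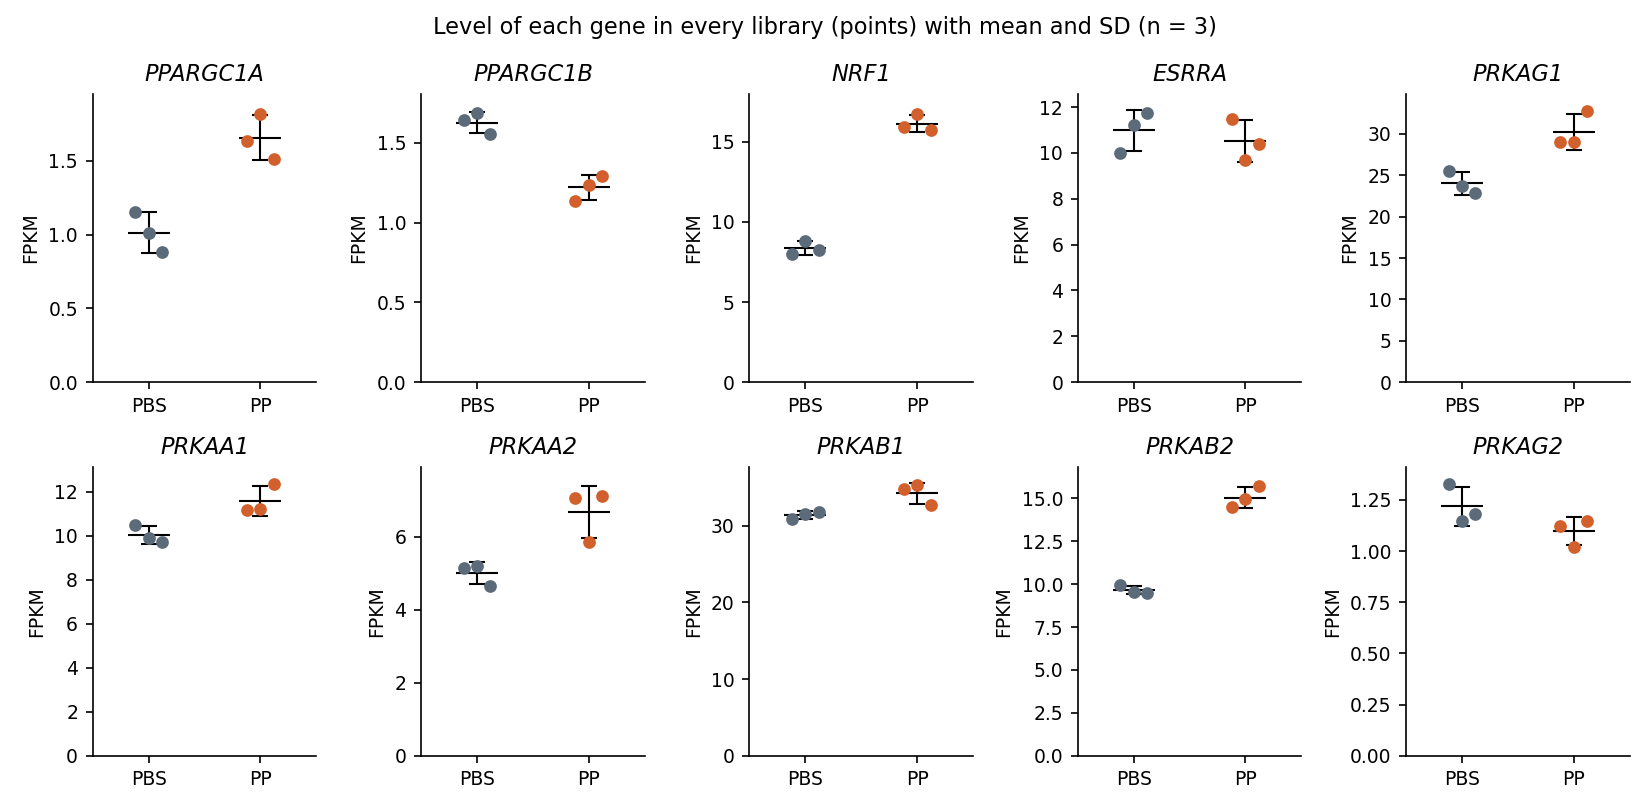
FPKM (vertical axes, from 0, each with its own range) of the 10 genes in the 3 PBS (grey) and 3 PP (orange) libraries, with the mean as a bar and the SD as whiskers. The groups are apart in 8 panels and overlap in those of *ESRRA* and *PRKAG2*.

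The promoters of the members are shown because several of the factors measured here, or their partners, bind known motifs. RefSeq promoter windows, each from 250 bases before to 50 bases after a transcript start on GRCh38.p14, were found for 9 of the 10 genes, 14 windows in all. *NRF1* had no entry. The windows were searched on both strands for 5 motifs. The NRF1 core GCGCANGCG was in 1 of the 14 windows and in 7.52% of all 35116 windows, the ERR motif AAGGTCA in 1 and in 3.92%, and the YY1 motif AAGATGGCG in 1 and in 1.75%. The cAMP response element TGACGTCA, present in 1.85% of all windows, and the CHOP-ATF4 element TGATGNAAT, present in 0.991%, were in 0 of the 14. The windows that held a match are printed to 30 bases past the start, 5′ to 3′ on the gene's strand, with the match in capitals. They are *ESRRA* with the NRF1 core at bases 158 to 166 (chr11:64305274-64305553, plus strand), *PRKAA1* with the YY1 motif at bases 263 to 271 (chr5:40798148-40798427, minus strand) and 1 of the 5 starts of *PRKAG2* with the reverse complement of the ERR motif at bases 156 to 162 (chr7:151736234-151736513, minus strand).
ESRRA: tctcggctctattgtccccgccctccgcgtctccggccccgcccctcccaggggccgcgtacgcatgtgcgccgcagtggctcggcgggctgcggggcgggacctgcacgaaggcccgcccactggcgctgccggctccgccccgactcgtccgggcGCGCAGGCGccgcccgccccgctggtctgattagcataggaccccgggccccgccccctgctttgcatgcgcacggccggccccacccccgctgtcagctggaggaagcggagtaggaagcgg
PRKAA1: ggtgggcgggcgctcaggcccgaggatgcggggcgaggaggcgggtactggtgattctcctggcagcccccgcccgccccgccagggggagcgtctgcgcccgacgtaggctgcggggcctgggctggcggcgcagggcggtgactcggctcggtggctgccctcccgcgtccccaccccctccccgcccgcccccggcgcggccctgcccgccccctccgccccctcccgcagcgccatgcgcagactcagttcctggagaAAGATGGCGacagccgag
PRKAG2: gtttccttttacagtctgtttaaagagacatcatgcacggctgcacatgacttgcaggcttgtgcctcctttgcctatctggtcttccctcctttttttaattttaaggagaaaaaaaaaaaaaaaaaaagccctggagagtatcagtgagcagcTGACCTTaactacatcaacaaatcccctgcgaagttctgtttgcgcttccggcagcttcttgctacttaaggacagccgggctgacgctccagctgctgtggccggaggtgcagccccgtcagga
A match describes the letters of the window and is not a bound site.

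*NRF1*, which binds GC-rich promoters of respiratory chain genes and of the mitochondrial transcription machinery, was higher with PP in all libraries. It lies at chr7:129251561-129396922 on the plus strand of GRCh37 (ENSG00000106459) and is not the gene *NFE2L1*, whose product is also abbreviated NRF1. The PBS libraries had 8.01, 8.83 and 8.26 FPKM and the PP libraries 15.9, 16.7 and 15.7 FPKM. Every PP library was far above every PBS library, and the libraries of each treatment were close to each other. The mean rose from 8.37 ± 0.421 to 16.1 ± 0.526 FPKM (SD, n = 3 each), 1.93 times, with a log2 fold change of 0.87 (SE 0.05, 95% confidence interval 0.76 to 0.98, limma adjusted p = 1.47e-07). Of all tested genes, 3.22% had a higher log2 fold change.

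The PGC-1 coactivators moved in opposite directions and were both scarce. *PPARGC1A* (chr4:23756664-23905712, minus strand, GRCh37, ENSG00000109819), the coactivator that cells induce on energy stress and cold, had 1.15, 1.01 and 0.879 FPKM with PBS and 1.64, 1.82 and 1.51 FPKM with PP. The groups were apart, and these values rest on 305 to 396 and 550 to 609 counts per library. Its mean rose from 1.01 ± 0.136 to 1.65 ± 0.153 FPKM (SD, n = 3), 1.63 times, with a log2 fold change of 0.40 (SE 0.08, 95% confidence interval 0.22 to 0.58, limma adjusted p = 0.00114). *PPARGC1B* (chr5:149109861-149234585, plus strand, GRCh37, ENSG00000155846), a coactivator of ERRalpha and of lipid-handling genes, had 1.64, 1.69 and 1.55 FPKM with PBS and 1.14, 1.23 and 1.29 FPKM with PP, on 229 to 333 counts. It was the only member that fell, with all PP libraries below all PBS libraries. The mean fell from 1.63 ± 0.0678 to 1.22 ± 0.0767 FPKM, a log2 fold change of -0.24 (SE 0.07, 95% confidence interval -0.39 to -0.09, limma adjusted p = 0.00838). For genes this low the pseudocount of 1 shrinks the difference, and with limma-voom on the recovered counts the log2 fold changes were 0.71 and -0.41, against 0.66 and -0.39 with a pseudocount of 0.1.

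On the FPKM scale, *PPARGC1B* was the more abundant coactivator in every PBS library and the less abundant in every PP library. That order rests on the gene lengths used for the deposited values, since the recovered counts of *PPARGC1A* (396 and 329) were above those of *PPARGC1B* (333 and 324) in PBS replicates 1 and 2. It made up 58.8, 62.5 and 63.9% of the summed PGC-1alpha and PGC-1beta FPKM with PBS and 41.0, 40.4 and 46.1% with PP. The share was 61.7 ± 2.64% and 42.5 ± 3.08% (SD, n = 3), a fall of 19.2 percentage points. The exact two-sided permutation test gave p = 0.1, the smallest that 3 libraries against 3 allow, and 0.133 adjusted over the 4 shares tested. The summed level of the pair was 2.64 ± 0.187 FPKM with PBS and 2.87 ± 0.151 FPKM with PP.

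*ESRRA* (chr11:64072969-64084215, plus strand, GRCh37, ENSG00000173153), whose promoter window carries the NRF1 core printed above, did not pass the test. Its levels were 9.98, 11.2 and 11.7 FPKM with PBS and 11.5, 9.67 and 10.4 FPKM with PP. The groups overlapped, with means of 10.98 ± 0.900 and 10.5 ± 0.918 FPKM and a log2 fold change of -0.06 (SE 0.07, limma adjusted p = 0.490). The 95% confidence interval of -0.22 to 0.10 leaves room for a small change either way. Exons of *ESRRA* overlap those of *TRMT112* on the other strand, its pseudogenes *ESRRAP1* and *ESRRAP2* are annotated elsewhere, and whether the counting used strand was not stated.

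Among the AMPK subunits 5 of 6 rose, by 1.09 to 1.56 times, where 38.1% of all tested genes rose. The call of the lowest of these, *PRKAB1*, did not hold in 6 of 13 alternatives. Both catalytic subunits were among the 5. *PRKAA1* (chr5:40759491-40798476, minus strand, GRCh37, ENSG00000132356), which encodes the widely expressed alpha1, had 10.5, 9.92 and 9.73 FPKM with PBS and 11.2, 11.2 and 12.4 FPKM with PP. Its groups were apart by a narrow margin, and the mean rose from 10.1 ± 0.405 to 11.6 ± 0.675 FPKM (log2 fold change 0.19, SE 0.05, limma adjusted p = 0.00991). *PRKAA2* (chr1:57110987-57181008, plus strand, GRCh37, ENSG00000162409), which encodes the alpha2 of muscle and heart, had 5.15, 5.20 and 4.66 FPKM with PBS and 7.07, 5.85 and 7.11 FPKM with PP. PP replicate 2 was the nearest to the controls, and still above them. The mean rose from 5.001 ± 0.298 to 6.67 ± 0.718 FPKM, with a log2 fold change of 0.35 (SE 0.08, limma adjusted p = 0.00173). The share of *PRKAA2* in the alpha sum was 33.2 ± 1.03% with PBS and 36.5 ± 2.23% with PP, and these shares overlapped between groups (exact permutation p = 0.2, two-sided, 0.2 adjusted). The alpha subunits together had 15.1 FPKM with PBS and 18.3 FPKM with PP, 1.21 times.

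The beta subunits carry a glycogen-binding domain and hold the complex together. *PRKAB2* (chr1:146626685-146644129, minus strand, GRCh37, ENSG00000131791), which encodes beta2, had the highest log2 fold change of the AMPK genes. It had 9.94, 9.55 and 9.49 FPKM with PBS and 14.5, 14.9 and 15.7 FPKM with PP, so that the groups were far apart. The mean rose from 9.66 ± 0.247 to 15.0 ± 0.625 FPKM, 1.56 times, with a log2 fold change of 0.59 (SE 0.05, 95% confidence interval 0.48 to 0.70, limma adjusted p = 1.67e-06). *PRKAB1* (chr12:120105669-120119429, plus strand, GRCh37, ENSG00000111725), which encodes beta1, had 30.8, 31.5 and 31.9 FPKM with PBS and 34.8, 35.3 and 32.7 FPKM with PP. The means were 31.4 ± 0.516 and 34.2 ± 1.39 FPKM, with a log2 fold change of 0.12 (SE 0.04, 95% confidence interval 0.03 to 0.21, limma adjusted p = 0.0221). That call was lost without PBS replicate 1, PBS replicate 2, PP replicate 1 or PP replicate 2 (limma adjusted p = 0.0667, 0.0530, 0.0593 and 0.0856) and with median-ratio scaling (0.0538). The share of *PRKAB2* in the beta sum was 24.4, 23.2 and 22.9% with PBS and 29.4, 29.8 and 32.5% with PP, higher in all 3 PP libraries. The means were 23.5 ± 0.755% and 30.5 ± 1.69%, 7.02 points apart (exact permutation p = 0.1, two-sided, the smallest possible, 0.133 adjusted).

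The gamma subunits, which bind the nucleotides, were uneven in level. *PRKAG1* (chr12:49396057-49412590, minus strand, GRCh37, ENSG00000181929), which encodes gamma1, had 25.5, 23.6 and 22.9 FPKM with PBS and 29.0, 29.0 and 32.7 FPKM with PP, with no overlap. The mean rose from 24.0 ± 1.36 to 30.2 ± 2.16 FPKM (log2 fold change 0.32, SE 0.06, limma adjusted p = 0.000594). *PRKAG2* (chr7:151253210-151574299, minus strand, GRCh37, ENSG00000106617), which encodes gamma2 and is mutated in an inherited heart muscle disease, had 1.33, 1.15 and 1.18 FPKM with PBS and 1.12, 1.02 and 1.15 FPKM with PP, on 262 to 349 counts. The groups overlapped and the test was not passed (log2 fold change -0.08, SE 0.07, 95% confidence interval -0.24 to 0.08, limma adjusted p = 0.337). As a share of the gamma sum, *PRKAG2* was at 4.95, 4.62 and 4.91% with PBS and 3.74, 3.41 and 3.39% with PP, lower in every PP library (a fall of 1.31 points, exact permutation p = 0.1, two-sided, 0.133 adjusted). On recovered counts, which are not divided by gene length, the difference was -3.96 points. The gene for gamma3, *PRKAG3*, was listed at 0 in all 6 libraries. Exons of *PRKAG1* overlap those of *DDN-AS1* on the other strand and of a protein-coding model on the same strand, those of *PRKAB1* and *PRKAG2* overlap antisense RNAs, and those of *NRF1* overlap the pseudogene *RNA5SP244*, and reads in such stretches cannot be told apart here.

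**Figure D2:**
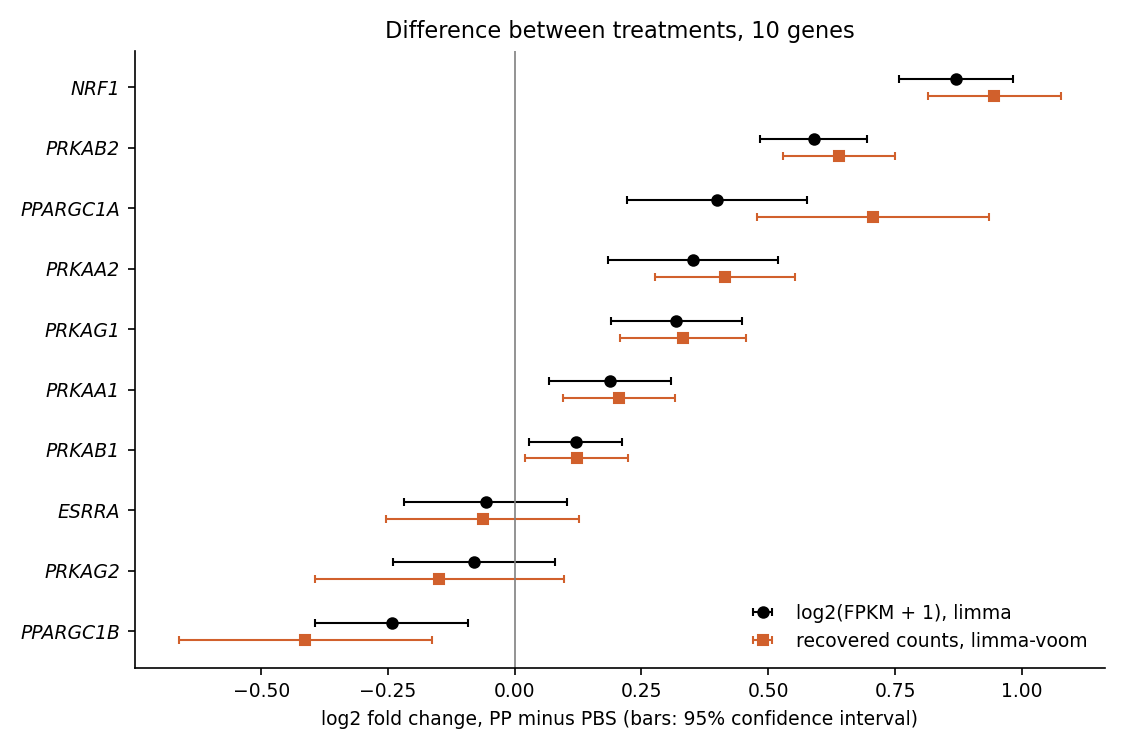
Log2 fold change of PP over PBS (horizontal axis) for the 10 genes, as points with 95% confidence intervals, from limma on log2(FPKM + 1) (black circles) and from limma-voom on recovered counts (orange squares), 3 libraries per group. *NRF1* lies farthest to the right in both fits. It is followed by *PRKAB2* (0.59) on log2(FPKM + 1) and by *PPARGC1A* (0.71) with limma-voom. The intervals of *ESRRA* and *PRKAG2* cross 0 in both fits.

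**Figure D3:**
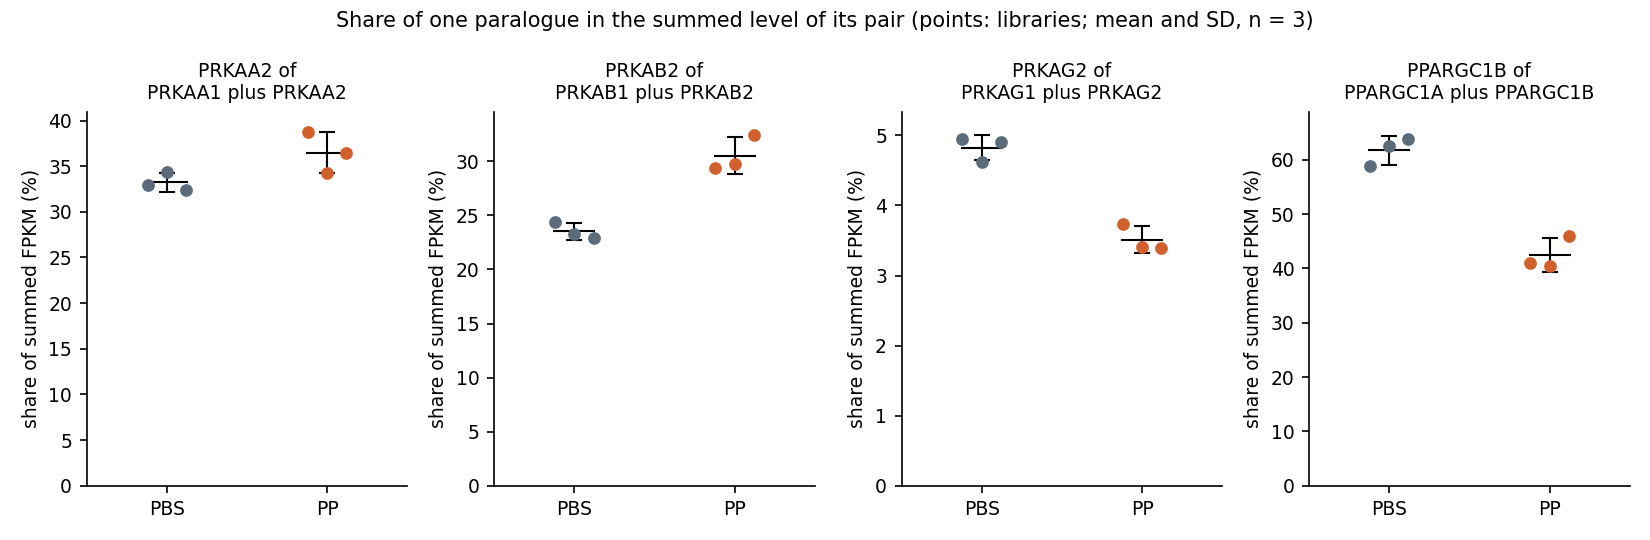
Share in percent (vertical axes, from 0) of 1 gene in the summed FPKM of its pair, for the 3 PBS (grey) and 3 PP (orange) libraries, with the mean as a bar and the SD as whiskers. The groups are apart for *PRKAB2*, *PRKAG2* and *PPARGC1B* and overlap for *PRKAA2*.

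The order of the levels on the FPKM scale shifted with treatment. With PBS it ran from *PRKAB1* over *PRKAG1*, *ESRRA*, *PRKAA1*, *PRKAB2*, *NRF1*, *PRKAA2* and *PPARGC1B* to *PRKAG2* and *PPARGC1A*. The neighbours *ESRRA* and *PRKAA1*, *PRKAA1* and *PRKAB2*, and *PRKAG2* and *PPARGC1A* overlapped in their libraries. With PP, *NRF1* stood next after *PRKAB1* and *PRKAG1*, ahead of *PRKAB2*, *PRKAA1*, *ESRRA*, *PRKAA2*, *PPARGC1A*, *PPARGC1B* and *PRKAG2*. The neighbours that overlapped with PP were *PRKAB1* and *PRKAG1*, *PRKAA1* and *ESRRA*, and *PPARGC1B* and *PRKAG2*. Across genes, the order rests on the gene lengths used for the deposited values. Recovered counts give another order, as *ESRRA* had 550 to 652 counts with PBS and *NRF1* 913 to 953.

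Genes whose libraries ran most like *NRF1* were sought among 11716 other genes, by the root-mean-square difference of log2(FPKM + 1), each gene taken from its PBS mean, over the 6 libraries. The nearest was *MON1A*, a gene of vesicle trafficking, at 0.0240, followed by *GOT1*, the cytosolic aspartate aminotransferase, at 0.0262 and *RPL12*, a ribosomal protein gene, at 0.0284. Their log2 fold changes were 0.87, 0.86 and 0.86. For *PPARGC1B* the nearest were *PEDS1*, a desaturase of plasmalogen synthesis, at 0.0162, *PAPOLA*, a poly(A) polymerase, at 0.0178 and *FAM13A* at 0.0184. Each of these had a log2 fold change of -0.24 on the log2(FPKM + 1) scale. In FPKM they fell less, to 0.831, 0.846 and 0.837 times the PBS mean, against 0.750 times for *PPARGC1B*. The pseudocount of 1 shrinks the difference of so low a gene. For both members, log2 fold changes this close follow from the way the genes were sought.

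Around these 10 genes, 6 lists of related genes were described by their counts, read against the 38.1% of tested genes called higher and the 34.4% called lower. Of 15 tested upstream kinases, phosphatases and binding regulators of AMPK, 8 rose (53.3%), 2 fell (13.3%) and 5 did not pass, with a median log2 fold change of 0.13. *SESN2*, a stress-induced sestrin that binds the nutrient-sensing machinery of mTORC1 and AMPK, had 7.59, 8.36 and 8.49 FPKM with PBS and 36.4, 36.6 and 35.3 FPKM with PP. Its PP libraries were all above 4 times the PBS mean. It was the only gene of its list past the stricter cutoff, with a log2 fold change of 2.02 (SE 0.05, limma adjusted p = 3.42e-10). *STRADB*, a pseudokinase partner of the AMPK kinase LKB1, rose from 7.29 ± 0.761 to 13.6 ± 0.747 FPKM (log2 fold change 0.82, limma adjusted p = 2.36e-06), while its paralogue *STRADA* fell from 6.91 ± 0.102 to 5.65 ± 0.561 FPKM (-0.25, limma adjusted p = 0.00505). The sestrin *SESN3* also fell, from 5.33 ± 0.0811 to 4.38 ± 0.140 FPKM (-0.23, limma adjusted p = 0.00248).

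Genes of AMPK substrates also moved to both sides. Of 17 tested, 6 rose (35.3%), 7 fell (41.2%) and 4 did not pass, with a median log2 fold change of -0.01. The forkhead factor gene *FOXO3* rose from 11.4 ± 0.273 to 16.4 ± 0.225 FPKM (0.49, limma adjusted p = 2.65e-06) and the histone deacetylase gene *HDAC5* from 15.2 ± 0.293 to 19.998 ± 0.620 FPKM (0.37, limma adjusted p = 2.24e-05). *PFKFB2*, which sets the level of the glycolytic activator fructose 2,6-bisphosphate, fell from 10.5 ± 0.582 to 6.97 ± 0.296 FPKM (-0.53, limma adjusted p = 1.15e-05), and *ACACB*, the acetyl-CoA carboxylase that restrains fatty acid oxidation, from 2.52 ± 0.0659 to 1.45 ± 0.0397 FPKM (-0.52, limma adjusted p = 3.00e-05). The pseudocount of 1 shrinks the lower gene more. With limma-voom on recovered counts the values were -0.59 for *PFKFB2* and -0.79 for *ACACB*. The kinases related to AMPK, most of which LKB1 also activates, likewise moved to both sides. Of 13 tested, 4 rose (30.8%), 5 fell (38.5%) and 4 did not pass, with a median of 0.07. Below the filter, and so outside these counts, were *CAMKK1* of the upstream list, *TBC1D4*, *HDAC4* and *LIPE* of the substrates and *SIK1* of the related kinases. Over genes averaging at least 0.1 FPKM, 1 of these substrates was called lower and 0 higher, and *CAMKK1* and *SIK1* were not called. *MARK1*, a kinase of microtubule-associated proteins, rose from 10.4 ± 1.02 to 23.2 ± 1.44 FPKM (1.09, limma adjusted p = 2.52e-07) and *BRSK1*, a kinase of neuronal polarity, from 5.08 ± 0.0642 to 9.99 ± 0.402 FPKM (0.85, limma adjusted p = 1.68e-07). *NUAK1* fell from 14.1 ± 0.495 to 5.79 ± 0.335 FPKM (-1.16, limma adjusted p = 2.91e-08) and *NUAK2* from 5.46 ± 0.116 to 2.895 ± 0.232 FPKM (-0.73, limma adjusted p = 2.33e-06).

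Partners and regulators of the PGC-1 coactivators were mostly higher with PP. Of 24 tested, 17 rose (70.8%), 2 fell (8.33%) and 5 did not pass, with a median log2 fold change of 0.22. *PPRC1*, the third member of the PGC-1 family, rose from 10.8 ± 0.422 to 22.8 ± 0.754 FPKM (1.02, limma adjusted p = 2.68e-08), and on the FPKM scale it was above *PPARGC1A* and *PPARGC1B* in every library. *MEF2A*, a MADS-box factor that PGC-1alpha coactivates, rose from 7.09 ± 0.199 to 17.6 ± 0.964 FPKM (1.20, limma adjusted p = 1.73e-08). Those that fell were *RXRA*, a nuclear receptor partner, from 20.1 ± 1.34 to 13.99 ± 0.687 FPKM (-0.49, limma adjusted p = 2.17e-05) and *KAT2A*, the acetyltransferase GCN5 that restrains PGC-1alpha, from 38.1 ± 0.494 to 33.2 ± 1.58 FPKM (-0.19, limma adjusted p = 0.00197). The ERR genes *ESRRB* and *ESRRG* were below the filter and fell in a fit over genes averaging at least 0.1 FPKM. *ESRRB* went from 0.667 ± 0.142 to 0.0630 ± 0.0326 FPKM, on 78 to 121 counts with PBS and 6 to 15 with PP. *ESRRG* went from 0.200 ± 0.0225 to 0.0486 ± 0.0313 FPKM, on 62 to 74 and 10 to 29 counts. *PPARG* and *PERM1* averaged less than 0.1 FPKM.

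Genes that these regulators are known to drive moved to both sides. Of 28 tested ERR and PGC-1 target genes of energy metabolism, 9 rose (32.1%), 15 fell (53.6%) and 4 did not pass, with a median log2 fold change of -0.16. *VEGFA*, an angiogenic growth factor rather than a metabolic enzyme, rose from 126 ± 0.888 to 270 ± 1.82 FPKM (1.10, limma adjusted p = 4.55e-10), and *HADHB*, a subunit of the mitochondrial trifunctional protein of fatty acid oxidation, from 47.3 ± 0.586 to 73.0 ± 0.121 FPKM (0.62, limma adjusted p = 6.40e-08). *SDHA*, the flavoprotein of respiratory complex II, fell from 65.0 ± 1.29 to 35.4 ± 1.90 FPKM (-0.86, limma adjusted p = 5.31e-08), and *UCP2*, an inner membrane carrier, from 37.8 ± 1.35 to 25.2 ± 1.39 FPKM (-0.57, limma adjusted p = 2.29e-06).

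Of 22 tested NRF1 target genes, 7 rose (31.8%), 10 fell (45.5%) and 5 did not pass, with a median log2 fold change of -0.04. Named after their values were seen, the genes that fell were *ATP5MC1*, *COX5B*, *COX6A1*, *COX7C*, *COX8A*, *CYC1*, *NDUFA8*, *NDUFS8*, *UQCRB* and *UQCRH*, which encode subunits of the respiratory chain or of ATP synthase. Those that rose were *TFAM*, *TFB2M*, *POLRMT* and *POLG2*, which serve mitochondrial DNA and its transcription, the import receptor gene *TOMM20*, the gene of the electron carrier cytochrome c, *CYCS*, and *MEF2A*. Those that did not pass were the complex II subunit gene *SDHD*, the genes *TFB1M* and *SSBP1* of mitochondrial ribosome and DNA upkeep, the import gene *TOMM34* and *FMR1*. No division of the list by function was tested. *ATP5MC1*, a subunit of the ATP synthase rotor, fell from 94.8 ± 1.95 to 49.6 ± 4.41 FPKM (-0.92, limma adjusted p = 1.87e-07), and *COX7C*, a cytochrome c oxidase subunit, from 208 ± 13.7 to 123.3 ± 8.97 FPKM (-0.75, limma adjusted p = 1.23e-06). *TFB2M*, a mitochondrial transcription factor, rose from 7.93 ± 0.840 to 11.6 ± 1.16 FPKM (0.49, limma adjusted p = 0.000319). Both *MEF2A* and *CYCS* stood in 2 of the lists.

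**Figure D4:**
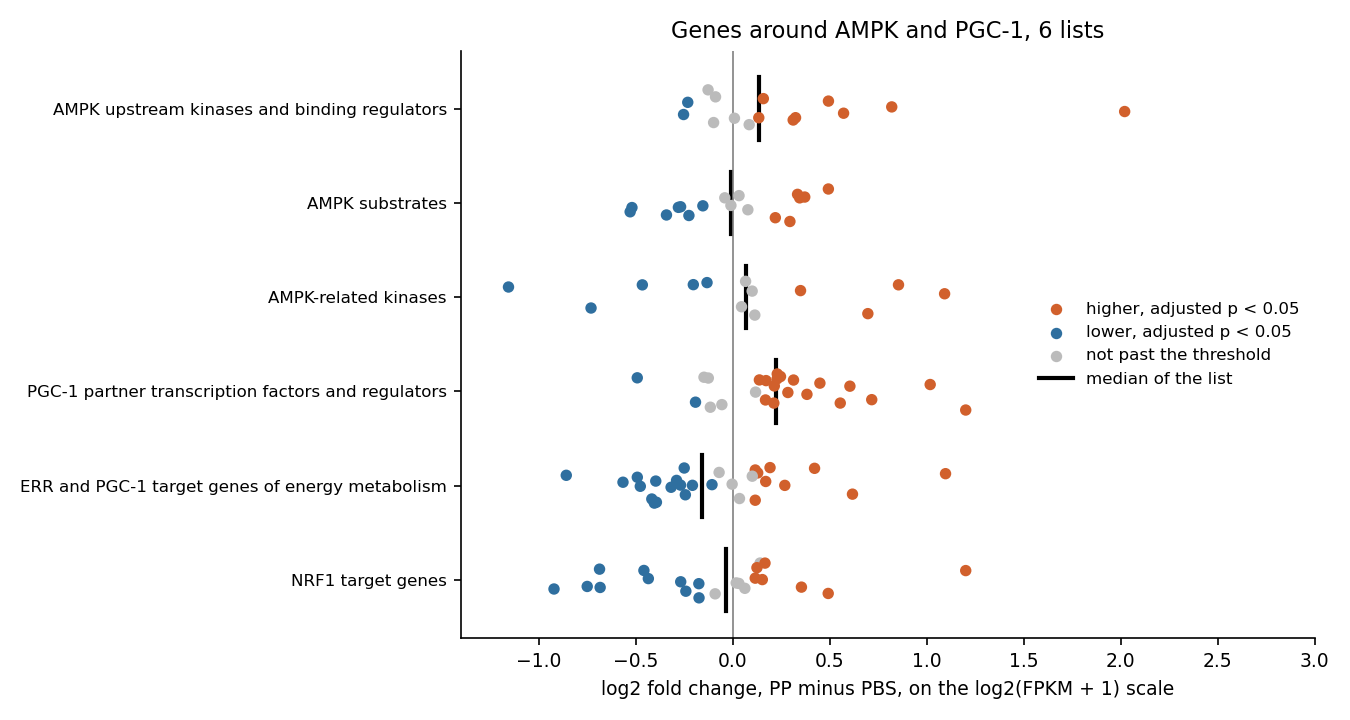
Log2 fold change of PP over PBS (horizontal axis) of each tested gene in the 6 lists, 1 point per gene with random vertical spread, coloured by direction and by an adjusted p under 0.05, with the median of each list as a black bar. The list of PGC-1 partners lies mostly to the right of 0 (17 of 24 higher), and the list of ERR and PGC-1 target genes mostly to the left (15 of 28 lower).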

How the data were processed

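RNA-seq libraries of NCI-H660 cells from day 3, 3 with PP and 3 with PBS, were grouped by their labels. The authors deposited FPKM values per gene symbol, scaled to gene length and to the total of each library. The submitters' processing notes name fastp, HISAT2, HTSeq and GRCh38, whereas the study's methods name Bowtie and hg19 with RSEM, Cufflinks and HTSeq, and which of these made the values was not stated. The methods give 2 samples per group, whereas the study's legends give 3 independent samples, and all 3 labelled libraries were used. Another gene length would rescale a gene in all libraries alike, and another total would rescale all genes of a library.

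The 10 members and the 6 lists of related genes were chosen with earlier results of these data known. Values were analysed as log2(FPKM + 1) with limma 3.58.1 (lmFit and eBayes with an intensity trend) in R 4.3.3 over the 11726 genes that averaged 1 FPKM or more, with Benjamini-Hochberg adjustment. Counts were recovered from the steps between FPKM values, with a tolerance of 0.01 of a count, for 100% of genes. The total ran from 29064253 to 32481171, and a low count is known only roughly. Shares of paralogues were compared by exact permutation tests. Within each list the 2 highest and 2 lowest genes with an adjusted p under 0.05 are named, and the 3 genes most like the highest and lowest members. Other pseudocounts, filters and scalings, no eBayes trend, a replicate block, each library left out and limma-voom on recovered counts were tried as alternatives. The recovery of counts, the limma fit and the limma-voom fit were tested on simulated data in which most genes were unchanged, unlike here. The shares, lists and search for like genes were not tested in this way. Gene models are GENCODE release 44 mapped to GRCh37 and promoters are from RefSeq on GRCh38.p14. The deposited values carry no coordinates. Python 3.11.15 with numpy 2.4.6, pandas 2.3.3, scipy 1.17.1 and matplotlib 3.10.9 was used. Splicing, reads and protein were not analysed here. The result for 1 marker gene is not reported here.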

Additional observations from a re-analysis of the deposited data

How the results depend on the processing

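Of 127 values of the 10 members under the alternatives, 121 kept their direction and their side of the threshold, and the other 6 were all of *PRKAB1*. Its log2 fold change was 0.0974 with median-ratio size factors (limma adjusted p = 0.0538) and 0.120 with a replicate block (limma adjusted p = 0.0546), and it ran from 0.0991 to 0.153 with 1 library left out. The deviations of same-numbered libraries correlated at -0.211, -0.0140 and -0.127, so no shared deviation was seen. These values cannot tell whether the cultures were set up in pairs, which the labels do not say. The replicate block changed no other member's call. Past the stricter cutoff of the methods, 531 genes were lower with a pseudocount of 0.1, and 397 were higher and 559 lower with limma-voom on recovered counts, against 263 and 344. On recovered counts, which are not scaled to gene length, the PP minus PBS difference of the *PRKAB2* share was 8.81 points and that of the *PRKAG2* share -3.96 points. Of the counts per list, 154 were within 1.5 times the reported one and 2 were not. With a minimum mean FPKM of 5, *PPARGC1A*, *PPARGC1B* and *PRKAG2* were not tested. Median-ratio scaling moved the median log2 fold change of all tested genes from 0.02 to 0.0014. The low counts of *PPARGC1A*, *PPARGC1B* and *PRKAG2* limit the precision of their values.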
